A study of Mus musculus with 24 samples.

Results

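The genes that encode the subunits of the glutamate and GABA receptors were followed through the prefrontal cortex (PFC) of mice under chronic social stress and dexamethasone (DEX). They were chosen by gene symbol, as the Gria, Grik, Grin, Grid, Grm, Gabr and Gabbr families, and 34 of the 14074 rows of the expression table are described. One of them, C130030K03Rik, is a processed pseudogene that lies just beyond the 3′ end of Grik2 and was listed under the symbol of Grik2. It ran from 46.0 to 118 normalized counts, was not called in any comparison, and was left out of all counts, so that 33 receptor genes in 8 classes remained. Gabra6, Gabre, Gabrq, Grin3b and Grm6 also fit the families and were not analysed here.

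The 24 libraries came from the PFC of 24 adult male C57BL/6 mice, in 6 groups of 4. Control mice were not defeated, and PS and AS mice went through 30 days of social defeat by aggressive CD1 residents. PS (passive coping) and AS (active coping) are behavioural classes, set by clustering how defeated mice behaved near the aggressive partner while no attack took place. Each of the 3 kinds of mouse received saline or 2 mg/kg DEX, a synthetic agonist of the glucocorticoid receptor, and tissue was taken 6 h later. All mice were injected. The 2 defeated classes differ in behaviour that was not assigned at random.

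Glutamate opens the ion channels of the AMPA, NMDA and kainate families, which are built from several subunits and carry fast excitation, and it also acts on the G-protein-coupled metabotropic receptors (Grm genes). The delta subunits (Grid genes) form no ordinary glutamate channel and act mainly as synaptic organizers. GABA opens the chloride channels of the GABA-A family, in which the alpha, beta, gamma and delta subunits set location and pharmacology, and acts through the G-protein-coupled GABA-B receptor, an obligate pair of Gabbr1 and Gabbr2. Which subunits a neuron uses decides the speed, the calcium entry and the modulation of its synapses.

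The libraries held 21121869 to 59439645 reads on genes (median 24420129), and each of the 33 genes had at least 10 reads in every library. Depth differed by group. Control saline libraries held 21121869 to 24753489 reads, PS saline 21493398 to 59439645 and AS saline 23481722 to 40268349. All AS DEX libraries (24908942 to 52422858) lay above all control libraries. A normalized count below is a gene's reads divided by the size factor of its library. Differences are on the scale of log2(normalized count + 1), with their SE, and a gene was called where its Benjamini-Hochberg adjusted p over all 14074 genes was under 0.1 in limma. The DEX and saline labels were checked on Fkbp5 and Tsc22d3, 2 targets of the glucocorticoid receptor. Fkbp5 rose with DEX by 2.26 ± 0.11, 2.00 ± 0.11 and 1.91 ± 0.11 (log2, SE) in control, PS and AS mice, and Tsc22d3 by 1.0 to 1.11, with adjusted p of 1.11e-07 or less in limma. The tissue expressed the markers of cortical excitatory neurons (Slc17a7, group means 43232 to 48237 normalized counts) and of inhibitory neurons (Gad1, 7502 to 9144). In 4 libraries (control saline mouse 117, PS DEX mouse 34, PS saline mouse 2 and AS saline mouse 14), olfactory bulb markers were high. The mean of the 5 measured markers stood more than 2 log2 units above its average over all libraries. In 3 libraries (PS DEX mouse 34, AS saline mouse 44 and AS DEX mouse 60), long genes were low relative to short genes by more than 0.2 log2 units. The receptor genes are long, with a median exon length of 6686 bases against 4647 over all genes whose mean was 100 normalized counts or more, so the comparisons were also fitted without these libraries. The libraries were bulk tissue, in which fewer cells of a type and less RNA per cell cannot be told apart.

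Sequences at the starts of 3 receptor genes called with DEX or stress are shown, since a ligand-activated glucocorticoid receptor binds DNA at pairs of the half-site AGAACA. The RefSeq promoter table (GRCm38.p6) held 30 windows for 23 of the 33 genes. Gria4, the AMPA subunit that fell with DEX, is encoded at chr9:4417896-4796234 on the minus strand, and the 250 bases before its start are chr9:4796235-4796484. Grik4, the kainate subunit that rose, is encoded at chr9:42518135-42944493 on the minus strand, and the 128 bases shown lie at chr9:42944494-42944621. Gabrg1, the GABA-A gamma subunit called under stress, is encoded at chr5:70751047-70842617 on the minus strand, and 30 bases round its start are given as chr5:70842595-70842624, most of which, the half-site included, lie inside the transcribed gene. Capitals mark a half-site (AGAACA or TGTTCT) in Gabrg1 and a GC box (GGGCGG or CCGCCC) in Grik4, and the Gria4 stretch holds neither.
Gria4: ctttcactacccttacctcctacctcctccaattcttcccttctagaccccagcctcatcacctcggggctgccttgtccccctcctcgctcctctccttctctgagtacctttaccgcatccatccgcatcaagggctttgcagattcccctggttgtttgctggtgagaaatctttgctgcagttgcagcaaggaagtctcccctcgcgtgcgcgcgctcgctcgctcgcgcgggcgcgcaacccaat
Grik4: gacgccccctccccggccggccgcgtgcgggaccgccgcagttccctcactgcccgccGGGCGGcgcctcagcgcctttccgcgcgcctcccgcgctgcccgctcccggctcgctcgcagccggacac
Gabrg1: tggccccgatatAGAACAtcagggcagtgg

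The half-site, searched on both strands over windows of 300 bases, was in 4 of the 30 receptor windows (13.3%) and in 19.0% of all 32851 windows. The windows with it were that of Gabrg1, 1 of the 3 of Grm8 and 2 of the 3 of Gabrb2. The GC box was in 16 of the 30 receptor windows (53.3%) and in 35.7% of all windows. The full palindrome, AGAACA and TGTTCT with 3 free bases between them, was in 3 windows of all genes and in 0 of the receptor windows. These are matches of letters near the start, and they do not show where the receptor binds.

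At the level of the whole tissue, the 33 receptor genes spanned a wide range. Divided by exon length, their mean level over the 24 libraries was highest for Gabbr1 (2968 normalized counts per kb), Grin1, the NMDA subunit that every NMDA receptor needs (2104), Gabbr2 (1973) and Gria1 (1761). Grik5 followed at 1354, then Gria2, which makes AMPA receptors impermeable to calcium, at 1325, and the GABA-A alpha subunit Gabra3 at 1282. Exon length here takes in every annotated exon of a gene, used in this tissue or not, and the ranks depend on it. Before the division, Gria2 (15548 bases) averaged 20596 normalized counts and Gria1 (6043 bases) 10641. All libraries of Gabbr1 (2697 to 3180 per kb) lay above those of Grin1 (1805 to 2313), while below them the ranges of neighbours overlapped, so that Grik5, Gria2 and Gabra3 have no fixed rank. Within the NMDA family, Grin2b (685 per kb) and Grin2a (411) exceeded Grin2c (342), Grin3a (101) and Grin2d (79.4). Of the 6 metabotropic receptors Grm3 was highest (648), and the lowest of the 33 genes were Grik1 (39.5), Grm8 (57.6) and Gabrg1 (74.4).

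**Figure D1:**
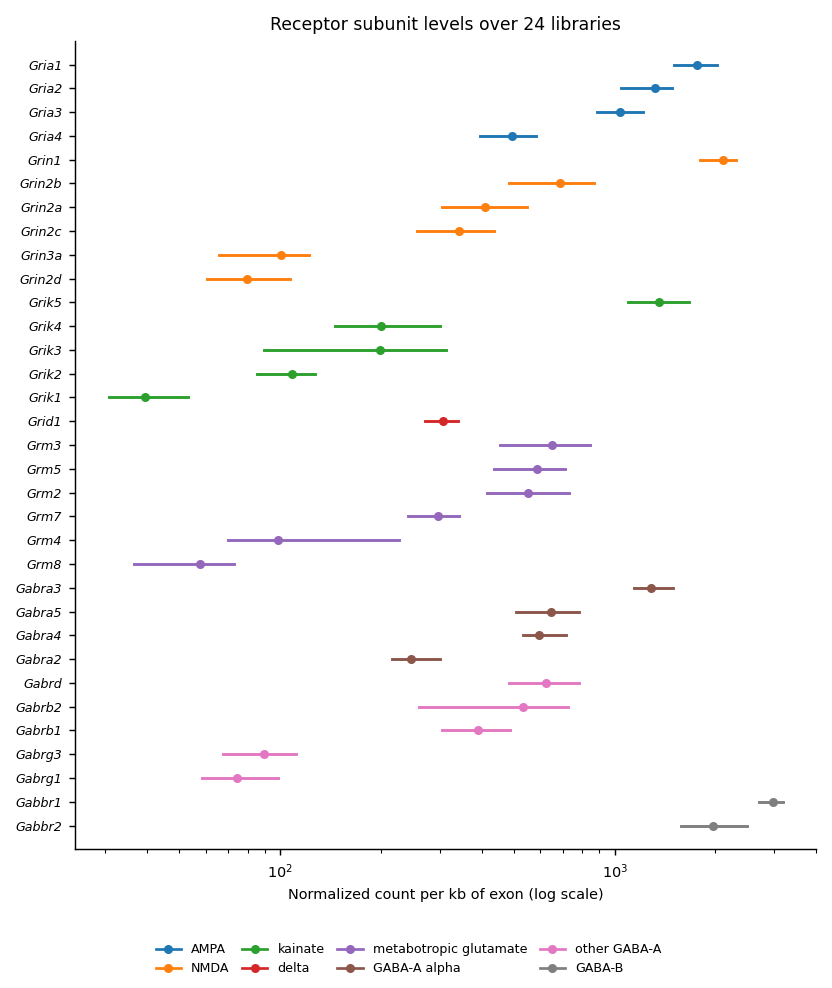
Level of each of the 33 receptor genes in normalized counts per kb of exon (log axis), by class. Points are means over the 24 libraries and lines run from the lowest to the highest library. Gabbr1 lies highest at 2968 and Grik1 lowest at 39.5.

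A minority of the receptor genes was called with DEX. Over control, PS and AS mice together, 7 of the 33 genes were called (21.2%), beside 15.5% of all genes. Of these, 2 rose, beside 7.46% of all genes called higher, and 5 fell, beside 8.01% called lower. The genes that rose were Gria1 and Grik4, and those that fell were Gria4, Gabrd, Grm3, Grin3a and Gabra2. Without the libraries with low long genes, 6 rose and 7 fell, beside 19.6% of all genes called. With the long-minus-short value of each library as a covariate, 5 rose and 7 fell, beside 22.2% of all genes called. The genes gained without those libraries were Grin2a, Gria3, Gabrb1 and Grid1 (higher) and Grm2 and Grin2d (lower). The median of the 33 differences was −0.011 (log2), beside −0.0024 over all genes, so that the genes as a group stayed near 0. By class, 2 of 4 AMPA, 1 of 6 NMDA, 1 of 5 kainate, 1 of 6 metabotropic, 1 of 4 GABA-A alpha, 1 of 5 other GABA-A, 0 of 1 delta and 0 of 2 GABA-B genes were called.

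Within the AMPA family, Gria4 and Gria1 moved in opposite directions. Gria4 encodes the subunit typical of fast interneuron synapses and of oligodendrocyte precursors. Its normalized counts were 3215, 3404, 3641 and 3677 in control mice with saline and 2497, 2806, 3127 and 2859 with DEX. In PS mice they were 3492, 3163, 3257 and 3567 with saline and 2757, 2830.0, 3053 and 2973 with DEX. The highest DEX library lay below the lowest saline library in both. In AS mice the values were 3017, 3349, 3288 and 3195 with saline and 2855, 3151, 2744 and 2841 with DEX, and the groups overlapped. Gria4 fell by 0.31 ± 0.07 in control mice (the mean fell by 19.1%; adjusted p = 0.00573) and by 0.21 ± 0.07 in PS mice (adjusted p = 0.0753). In AS mice the difference was −0.15 ± 0.07 (adjusted p = 0.22 in limma), and with the long-minus-short covariate Gria4 was called lower there (adjusted p = 0.0767 in limma). Over the 3 kinds of mouse it fell by 0.22 ± 0.04 (adjusted p = 0.00017), the smallest adjusted p of the 33 genes there, and that call held under each of the 33 alternative settings. The call in control mice held in all 33 as well. The call in PS mice was lost without any 1 of PS saline mice 2, 62 and 68 or PS DEX mice 6, 34 and 56 (adjusted p 0.101 to 0.22), and was 0.398 without the olfactory-bulb-high libraries, 0.133 without those with low long genes and 0.11 with library size as a covariate.

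Gria1, the subunit delivered to synapses during plasticity, rose with DEX. In PS mice, its normalized counts were 10565, 9479, 9729 and 10254 with saline and 11732, 11500.1, 12039.5 and 11303 with DEX, with no overlap. In AS mice they were 10079, 10277, 9535 and 9072 with saline and 12213, 11801, 9510.1 and 11408 with DEX, where mouse 60 stayed among the saline values and the others lay above them. In control mice they were 9906, 9765, 10351 and 10936 with saline and 10143, 11284, 11327 and 11170.5 with DEX. Gria1 rose by 0.22 ± 0.07 in PS (16.4%; adjusted p = 0.0764) and 0.20 ± 0.07 in AS mice (14.9%; adjusted p = 0.0855). The difference was 0.10 ± 0.07 in control mice (adjusted p = 0.539 in limma), and over all it rose by 0.17 ± 0.04 (adjusted p = 0.00323). The call in PS mice was lost without any 1 of PS saline mice 28, 62 and 68 or PS DEX mice 6, 34 and 52 (adjusted p 0.108 to 0.224), without the olfactory-bulb-high libraries (0.135) and with library size as a covariate (0.103). The call in AS mice was lost without any 1 of AS saline mice 8, 40 and 44, AS DEX mice 38, 42 and 72, control DEX mice 108 and 122 or PS DEX mouse 6 (adjusted p 0.1 to 0.244), and with quantile normalization (0.178) or the library size covariate (0.113). The other AMPA genes, Gria2 and Gria3, were not called in limma with all libraries. Without the libraries with low long genes, Gria3 (adjusted p = 0.043) and Gria2 (0.079) were called higher with DEX in AS mice and Gria3 over all mice (0.0232). DESeq2 also called Gria3 in AS mice (0.0945).

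**Figure D2:**
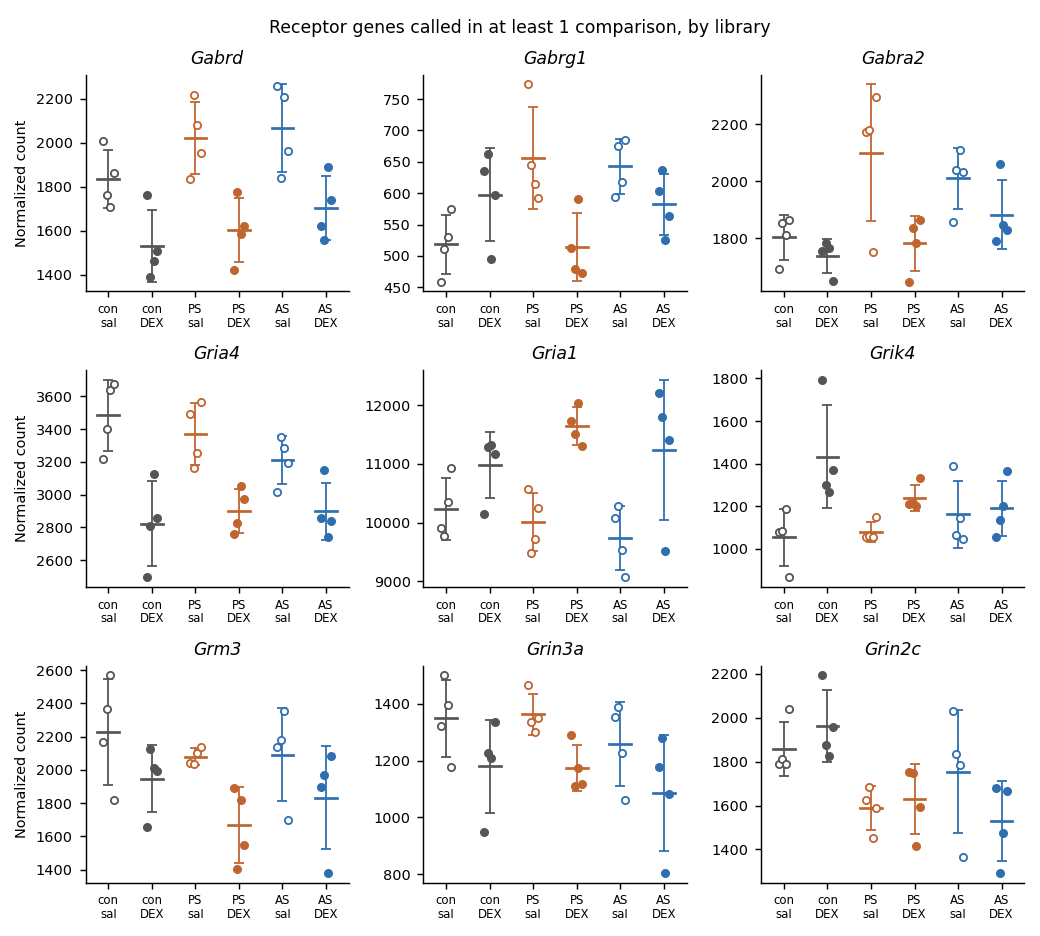
Normalized counts per library of the 9 receptor genes called in any comparison, by group. Open points are saline libraries, filled points DEX libraries, and bars the mean ± SD of 4 libraries. Gria4 and Gabrd lie lower and Gria1 higher with DEX, and the DEX libraries of Grik4 stand apart from saline in control and PS mice only.

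Among the kainate genes, Grik4 rose in control mice. Grik4 encodes a high-affinity subunit that works only beside Grik1, Grik2 or Grik3. Its normalized counts in control mice were 1079, 1086, 1187 and 868 with saline and 1793, 1302, 1269 and 1369.7 with DEX, with no overlap, and mouse 101 stood highest. In PS mice the values were 1054, 1059.7, 1057 and 1150.0 with saline and 1210.3, 1216, 1201 and 1332 with DEX, again with no overlap but closer together. In AS mice, 1388, 1066, 1146 and 1048 with saline and 1058, 1134, 1202 and 1366 with DEX overlapped. Grik4 rose by 0.44 ± 0.11 in control mice (35.4%; adjusted p = 0.0167), the largest called rise among the 33 genes, and by 0.22 ± 0.06 over all mice (adjusted p = 0.0162). The differences were 0.20 ± 0.11 in PS (adjusted p = 0.45) and 0.04 ± 0.11 in AS mice (adjusted p = 0.913 in limma), and the tests of AS against control (interaction −0.40 ± 0.15, adjusted p = 0.229) and of PS against control (−0.24 ± 0.15, adjusted p = 0.629) did not pass. With the 4 olfactory-bulb-high libraries left out, the adjusted p in control mice was 0.1. The remaining kainate genes were not called in limma with all libraries, and Grik3 was the most variable, from 803 to 2806 normalized counts over libraries.

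Gabrd, the GABA-A delta subunit of extrasynaptic receptors that carry tonic inhibition, fell in every kind of mouse. Control mice had 2009.9, 1762, 1706 and 1862 normalized counts with saline and 1764, 1389.8, 1464 and 1509 with DEX. PS mice had 1837, 2219, 2079.8 and 1955 with saline and 1422, 1778, 1587 and 1620.3 with DEX. AS mice had 2255, 1838, 2208 and 1962 with saline and 1622, 1558, 1889.8 and 1739.9 with DEX. The groups did not overlap in PS mice and overlapped by 1 DEX library in control mice and in AS mice. Gabrd fell by 0.26 ± 0.09 (adjusted p = 0.0945), 0.34 ± 0.09 (adjusted p = 0.0268) and 0.28 ± 0.09 (adjusted p = 0.0621 in limma) in control, PS and AS mice, and by 0.29 ± 0.05 over all (the level fell by 18.4%; adjusted p = 0.000183). The call in control mice was lost in 17 of 33 alternative settings (adjusted p 0.0325 to 0.281 over the 33), among them without any 1 of control saline mice 106, 107 and 117 or control DEX mice 108, 112 and 122 (0.135 to 0.281), or without PS saline mouse 62 or 68, PS DEX mouse 52 or 56, AS saline mouse 40 or AS DEX mouse 38 or 72 (0.101 to 0.109). The call in PS mice was lost without PS saline mouse 28 (adjusted p = 0.112) or PS DEX mouse 6 (0.119), and that in AS mice without AS saline mouse 8 or 40 or AS DEX mouse 38 or 42 (0.141 to 0.222). The call over all mice was lost in 0 settings.

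Gabra2, an alpha subunit of synapses on pyramidal cell bodies and axon initial segments, fell in PS mice. Their normalized counts were 2174, 2179, 1751 and 2297 with saline and 1649, 1838, 1783 and 1863 with DEX. A single saline library, mouse 62, overlapped the DEX values. PS mice averaged 2100 with saline and 1783 with DEX, beside 1805 and 1740 in control and 2011 and 1883 in AS mice. The level in PS mice with DEX was thus near that of control mice. The same PS saline libraries enter the stress comparison, in which Gabra2 lay higher. Gabra2 fell by 0.23 ± 0.07 in PS mice (the level fell by 14.7%; adjusted p = 0.0734 in limma), and by 0.13 ± 0.04 over all mice (adjusted p = 0.0437). The differences were −0.05 ± 0.07 in control and −0.10 ± 0.07 in AS mice, with adjusted p of 0.815 and 0.541 in limma. The call in PS mice was lost without any 1 of PS saline mice 2, 28 and 68 or PS DEX mice 6 and 52 (adjusted p 0.129 to 0.244 in limma), without the olfactory-bulb-high libraries (0.288) and with the library size covariate (0.106). The alpha genes Gabra3, Gabra4 and Gabra5 were not called with DEX in limma with all libraries. Gabra5 was called higher in AS mice without the olfactory-bulb-high libraries (adjusted p = 0.0789) and without those with low long genes (0.0812).

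Among the 6 metabotropic genes, Grm3 fell over all mice, with no call in any single kind of mouse in limma with all libraries and no covariate. With the long-minus-short covariate it was called lower in control (adjusted p = 0.0175), PS (0.000786) and AS mice (0.00865 in limma). Grm3 encodes a receptor found on neurons and, at high levels, on astrocytes. Grm3 averaged 2228 ± 319 (SD, n = 4) normalized counts in control mice with saline and 1948 ± 202 with DEX, 2080 ± 49.2 and 1667 ± 228 in PS mice, and 2091 ± 278 and 1833 ± 310 in AS mice. Its 4 PS libraries with DEX (1890.1, 1406, 1821 and 1548) lay below those with saline (2041, 2038, 2102 and 2139), and the groups overlapped in control and AS mice. Grm3 fell by 0.24 ± 0.07 over all (the level fell by 15.2%; adjusted p = 0.0294 in limma). The 10 astrocyte markers measured gave 2 genes higher and 1 lower over all mice (median −0.011), none of them was at 0 in every library, and their summed level ran from 111989 to 135265 in control mice with saline and from 124826 to 148929 with DEX, from 120671 to 140154 and 110110 to 128244 in PS mice, and from 119614 to 146048 and 113940 to 146973 in AS mice. Their part in the differences of Grm3 was not tested.

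Grin3a, an NMDA subunit that lowers calcium entry, was the only one of the 6 NMDA genes called with DEX in limma with all libraries. It averaged 1348 ± 135 (SD, n = 4) and 1179 ± 164 normalized counts in control mice with saline and DEX, 1363 ± 72.2 and 1174 ± 81.8 in PS mice, and 1257 ± 148 and 1086 ± 203 in AS mice. In PS mice the saline libraries (1467, 1336, 1299.6 and 1349.7) lay above those with DEX (1289, 1112, 1175 and 1119). Grin3a fell by 0.21 ± 0.07 over all (the level fell by 13.7%; adjusted p = 0.0419 in limma). Without the 4 olfactory-bulb-high libraries, the calls over all mice of Grin3a (adjusted p = 0.116) and Gabra2 (0.148) were lost. With the long-minus-short covariate, Grin3a was called lower in control (adjusted p = 0.0803) and AS mice (0.0358 in limma). Without the libraries with low long genes, Grin2a (adjusted p = 0.0334) and Grin2d (0.0332) were also called over all mice, and Grin2a (0.0972), Grin2c (0.0591) and Grin2d (0.0523) in AS mice.

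Within single kinds of mouse, the share of receptor genes called was not uniform. In control mice, 3 of 33 (9.09%) were called, beside 6.49% of all genes (Gria4 and Gabrd lower, Grik4 higher), and 2 had groups that did not overlap, beside 10.1%. In PS mice, 5 of 33 (15.2%) were called, beside 5.36% of all genes (Gria4, Gabrd, Gabrg1 and Gabra2 lower, Gria1 higher), and 9 did not overlap, beside 10.1%. Without the olfactory-bulb-high libraries 1 was called in PS mice, beside 2.95% of all genes. With the library size covariate it was 2, beside 5.05%, and without any 1 PS library 0 to 3. In AS mice, 2 of 33 (6.06%) were called, beside 8.77% of all genes (Gabrd lower, Gria1 higher), and 3 did not overlap, beside 9.02%. In AS mice, 22 of 33 differences with DEX were above 0, beside 50.7% of all genes, with a median of 0.058. Without the libraries with low long genes, 8 receptor genes were called in AS mice, beside 15.4% of all genes. Without AS DEX mouse 60 alone the median was 0.126, and without AS saline mouse 44 alone it was −0.009, with 17 of 33 differences below 0. In AS mice, 5 of 10 endothelial and 4 of 8 mural markers fell with DEX, with medians of −0.588 and −0.858. Of 10 oligodendrocyte markers 3 rose (median 0.421), and of 10 general neuronal markers 2 rose (median 0.184). None of these markers was at 0 in every library. The summed neuronal markers ran from 216348 to 239441 normalized counts in AS mice with saline and from 256049 to 268544 with DEX, the oligodendrocyte markers from 21277 to 36247 and from 34026 to 49666, the endothelial markers from 6647 to 10629 and from 4954 to 7539, and the mural markers from 3525 to 6927 and from 2991 to 3589. Their part in the differences of the receptor genes was not tested.

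**Figure D3:**
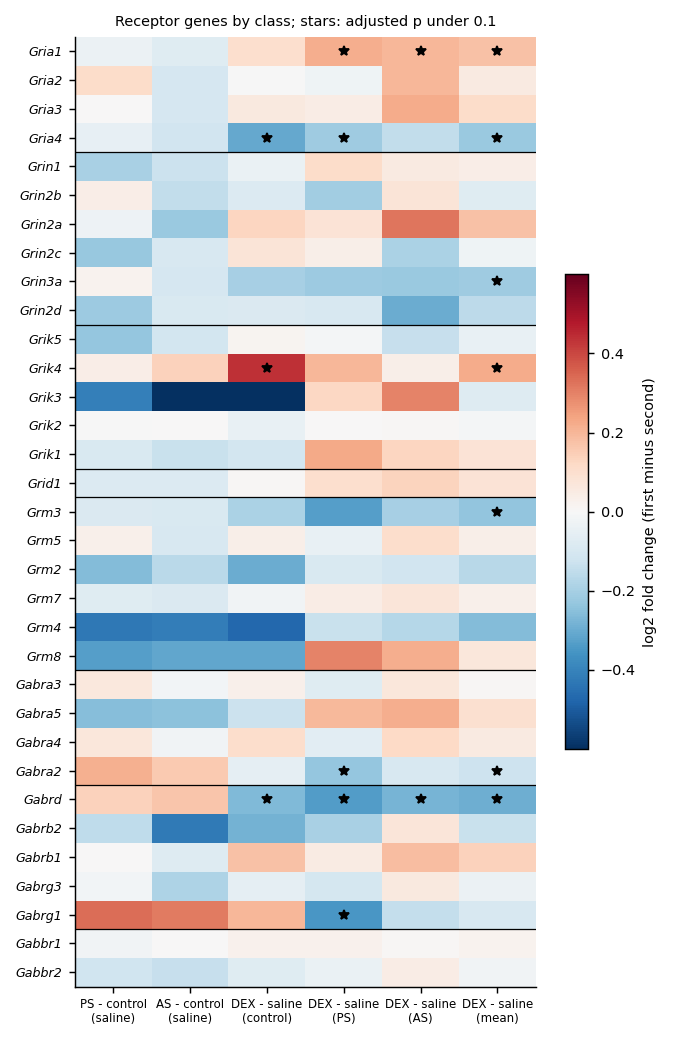
Differences of the 33 receptor genes in 6 comparisons on the log2 scale, ordered by class, with stars on genes called in limma at an adjusted p under 0.1. The colour scale ends at 0.6 in both directions, and the lowest difference is that of Grik3 in AS mice with saline (−0.73). All stars stand in the DEX columns.

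Ratios of subunits that occupy the same receptor position, or share a complex, do not depend on how a library was scaled. Of 6 tests (3 ratios, DEX against saline and stressed against control), 1 had an adjusted p under 0.1, that of Grin2a to Grin2b for DEX. Adjustment was over 14 ratio tests. Grin2b predominates early in life and gives slow NMDA currents, while Grin2a gives faster ones. The ratio of their normalized counts was 0.403, 0.422, 0.400 and 0.413 in control mice with saline and 0.480, 0.491, 0.477 and 0.452 with DEX. In PS mice it was 0.422, 0.381, 0.361 and 0.399 with saline and 0.448, 0.458, 0.508 and 0.497 with DEX. In AS mice it was 0.362, 0.395, 0.406 and 0.392 with saline and 0.434, 0.494, 0.449 and 0.463 with DEX. All 12 DEX libraries (0.434 to 0.508) lay above all 12 saline libraries (0.361 to 0.422). The log2 ratio was 0.25 higher with DEX (exact permutation test within each kind of mouse, two-sided, p = 5.83e-06, the smallest that 343000 relabelings allow, adjusted p = 8.16e-05). Neither gene was called alone in limma with all libraries, with differences over all mice of 0.18 ± 0.09 for Grin2a (adjusted p = 0.261) and −0.07 ± 0.09 for Grin2b (adjusted p = 0.745 in limma). Grin2a was called over all mice without the libraries with low long genes (0.25, adjusted p = 0.0334) and with the long-minus-short covariate (0.17, adjusted p = 0.0108 in limma). The 2 genes varied together between libraries, from 5452 to 9805 normalized counts for Grin2a and from 12020 to 21594 for Grin2b. The difference in the ratio was 0.272 without the olfactory-bulb-high libraries and 0.261 without the libraries with low long genes.

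The other ratios did not pass. The AMPA ratio Gria1/Gria2 averaged 0.511 ± 0.045 (SD, n = 4) and 0.549 ± 0.0385 in control, 0.461 ± 0.016 and 0.548 ± 0.0444 in PS, and 0.523 ± 0.0725 and 0.523 ± 0.0518 in AS mice, with saline and DEX. Its groups did not overlap in PS mice (0.447 to 0.478 with saline and 0.520 to 0.614 with DEX) and overlapped in control and AS mice. Its log2 difference with DEX was 0.12 (exact permutation p = 0.0456, adjusted p = 0.16), and 0 of 12 DEX libraries lay above all saline libraries. Without control saline mouse 117, AS saline mouse 8 or AS DEX mouse 60, the adjusted p was 0.0949, 0.0359 and 0.0612 (exact permutation). Gabbr2/Gabbr1, the ratio within the GABA-B pair, averaged 0.613 ± 0.0628 and 0.571 ± 0.0376 in control, 0.571 ± 0.0181 and 0.547 ± 0.0247 in PS, and 0.555 ± 0.0397 and 0.572 ± 0.0627 in AS mice. It differed by −0.04 on the log2 scale with DEX (exact permutation p = 0.378, adjusted p = 0.472). For stressed against control mice, the 3 ratios had adjusted p from 0.249 to 0.472 (exact permutation), and that of Gabbr2/Gabbr1 was 0.0949 without control saline mouse 117 (log2 difference −0.11).

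**Figure D4:**
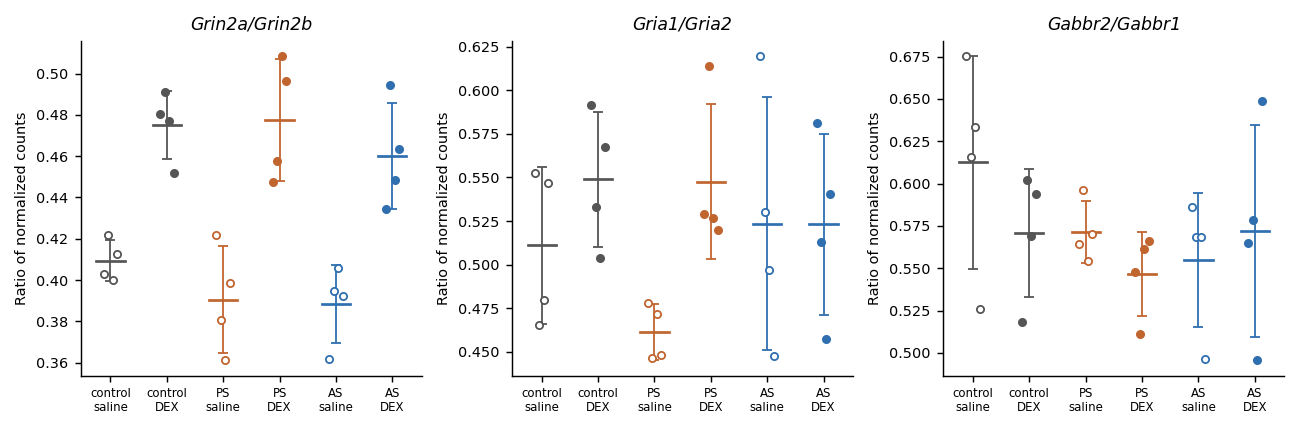
Ratios of normalized counts per library for Grin2a/Grin2b, Gria1/Gria2 and Gabbr2/Gabbr1, by group (open saline, filled DEX), with the mean ± SD of 4 libraries. The Grin2a/Grin2b values are 0.434 to 0.508 in DEX libraries and 0.361 to 0.422 in saline libraries, with no overlap, while over all mice the saline and DEX values of the other 2 ratios overlap.

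Few receptor genes were called with chronic stress alone, and the lack of a call does not show that a gene was unchanged. With saline, limma called 0 of 33 genes in PS mice against control (1.51% of all genes) and 0 in AS mice (0.156%), and for the mean of both 1, Gabrg1 (3.03%, beside 1.49% of all genes). At an unadjusted p under 0.05 in limma there were 8 of 33 receptor genes in PS mice, beside 13.1% of all genes, and 6 of 33 in AS mice, beside 11.0%. edgeR called 0 and 0 of the 33 receptor genes, beside 1.51% and 0.185% of all genes. DESeq2 called 3 and 0, beside 3.06% and 0.703%. The groups did not overlap for 6 genes in PS mice, beside 11.3% of all genes, and for 2 in AS mice, beside 6.51%.

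Gabrg1, a GABA-A gamma subunit that is also expressed by astrocytes, was higher in both stressed groups. Control mice with saline had 459, 510.3, 529.5 and 574 normalized counts, PS mice 773, 645, 615 and 592, and AS mice 594, 674, 618 and 685. All 8 stressed libraries lay above all 4 control libraries. Gabrg1 rose by 0.33 ± 0.09 over both stressed groups (25.3%; adjusted p = 0.082). The differences were 0.34 ± 0.10 in PS (adjusted p = 0.129) and 0.31 ± 0.10 in AS mice (adjusted p = 0.274 in limma), and in PS mice it was called by DESeq2 (0.0634), without the libraries with low long genes (0.0691) and with the long-minus-short covariate (0.0511). The call over both was lost in 12 of 33 alternative settings, with adjusted p from 0.0284 to 0.265 over the 33. Among them were the library size covariate (0.176 in limma) and the fit without the olfactory-bulb-high libraries (0.163). Single libraries whose omission lost it were control saline mice 106, 107 and 109, control DEX mouse 122, PS saline mice 2 and 28, PS DEX mouse 6 and AS saline mice 14, 40 and 44 (adjusted p 0.1 to 0.265). The 10 astrocyte markers had medians of 0.076 in PS and 0.192 in AS mice with 0 called, and their part in the difference of Gabrg1 was not tested.

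With DEX, Gabrg1 took a different course by group, as far as single values show. PS mice with DEX had 513, 479, 590.0 and 472 normalized counts, below all 4 PS mice with saline, and the gene fell by 0.35 ± 0.10 (the level fell by 21.6%; adjusted p = 0.0516). Control mice with DEX had 636, 662, 495 and 597, with a difference of 0.20 ± 0.10 (adjusted p = 0.349). AS mice with DEX had 604, 637, 525 and 563, with a difference of −0.14 ± 0.10 (adjusted p = 0.512 in limma). The difference between the DEX responses of PS and control mice was −0.55 ± 0.14 (unadjusted p = 0.000742, adjusted p = 0.293 in limma) and did not pass. These values share the saline libraries with the stress comparison. Without PS saline mouse 2, the highest of the PS libraries, the adjusted p for DEX in PS mice was 0.234 in limma, and without PS saline mouse 28 or PS DEX mouse 6, 34 or 56 it was 0.102 to 0.145. Without the olfactory-bulb-high libraries it was 0.45, and without those with low long genes 0.11.

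Other genes had an unadjusted p under 0.05 under stress and were not called in limma with all libraries. The normalized counts of Grin1 were 22434, 21642, 20732 and 21827 in control mice against 17509, 18737, 20012 and 19413 in PS mice, a difference of −0.20 ± 0.06 (adjusted p = 0.147 in limma), and the groups did not overlap. Grin1 was called lower there by DESeq2 (0.0401), without the libraries with low long genes (0.0489) and with the long-minus-short covariate (0.0538). Gabra5, an alpha subunit of extrasynaptic receptors, differed by −0.26 ± 0.09 in PS (adjusted p = 0.204) and −0.25 ± 0.09 in AS mice (adjusted p = 0.328 in limma), with groups that did not overlap in PS and overlapped in AS mice. It was called in PS mice without the libraries with low long genes (0.0965) and with the long-minus-short covariate (0.0858). Gabra2 differed by 0.21 ± 0.07 in PS mice (adjusted p = 0.176 in limma), where mouse 62 lay among the control values, and it was called there by DESeq2 (0.0941) and with the long-minus-short covariate (0.0742). Grm8, a presynaptic receptor, differed by −0.33 ± 0.13 in PS and −0.31 ± 0.13 in AS mice, with adjusted p of 0.259 and 0.371 in limma, and all 8 stressed libraries (436 to 571) lay below the control libraries (594 to 722). Grin2c, an NMDA subunit also found in astrocytes, was called by the test for any difference among the 6 groups (adjusted p = 0.0865 in limma), with means of 1859 ± 122 and 1963 ± 162 (SD, n = 4) in control, 1588 ± 99.1 and 1629 ± 159 in PS, and 1755 ± 279 and 1529 ± 183 in AS mice, with saline and DEX. That test called 7 of 33 genes (21.2%), beside 14.8% of all genes: Gria4, Gabrd, Gria1, Grik4, Gabra2, Gabrg1 and Grin2c. The call of Grin2c was lost in 18 of 33 alternative settings (adjusted p 0.0143 to 0.224 over the 33). These included the omission of any 1 of the 4 control saline or 4 PS saline libraries, of control DEX mice 101, 108 and 122, PS DEX mouse 56, AS saline mice 14 and 40, and AS DEX mice 42 and 60 (0.103 to 0.17). In the same test, Grik4 was lost without control DEX mouse 101 or 122 (0.154 and 0.109), Gabrg1 without control saline mouse 106 or PS DEX mouse 56 (0.1 and 0.104), Gria1 without PS DEX mouse 52 (0.1), and Gabra2 without control DEX mouse 122 or PS saline mouse 2, 28 or 68 (0.108 to 0.132). Without the olfactory-bulb-high libraries, Grik4 (0.176), Gabrg1 (0.177), Gabra2 (0.202) and Grin2c (0.168) were lost in that test.

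In AS mice with saline, the receptor genes lay low as a group without single calls. Of 33 differences from control, 29 were below 0 (49.1% of all genes), with a median of −0.101 beside 0.0031 over all genes. All 4 AMPA, 6 NMDA, 6 metabotropic and 2 GABA-B genes were below 0, as were the delta gene Grid1, 4 of 5 kainate, 3 of 4 GABA-A alpha and 3 of 5 other GABA-A genes. These genes vary together between libraries and are not independent. Genes with exons of at least 6000 bases had a median of −0.058 in the same comparison and genes under 2500 bases one of 0.069. Without AS saline mouse 44 alone, a library in which long genes were low, 24 genes were below 0 with a median of −0.049. With the long-minus-short value of each library as a covariate, 19 genes were below 0 with a median of −0.022. In PS mice 21 of 33 were below 0, with a median of −0.033. None of the marker lists had a call in AS mice with saline, where 0.156% of all genes were called. The medians were −0.116 for 10 general neuronal, −0.077 for 11 pyramidal, −0.107 for 12 interneuron and −0.441 for 10 oligodendrocyte markers, and 0.192 for 10 astrocyte and 0.194 for 10 microglial markers. The summed neuronal markers ran from 237879 to 252705 normalized counts in control mice and from 216348 to 239441 in AS mice. The part of gene length and of these markers in the differences was not tested further.

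**Figure D5:**
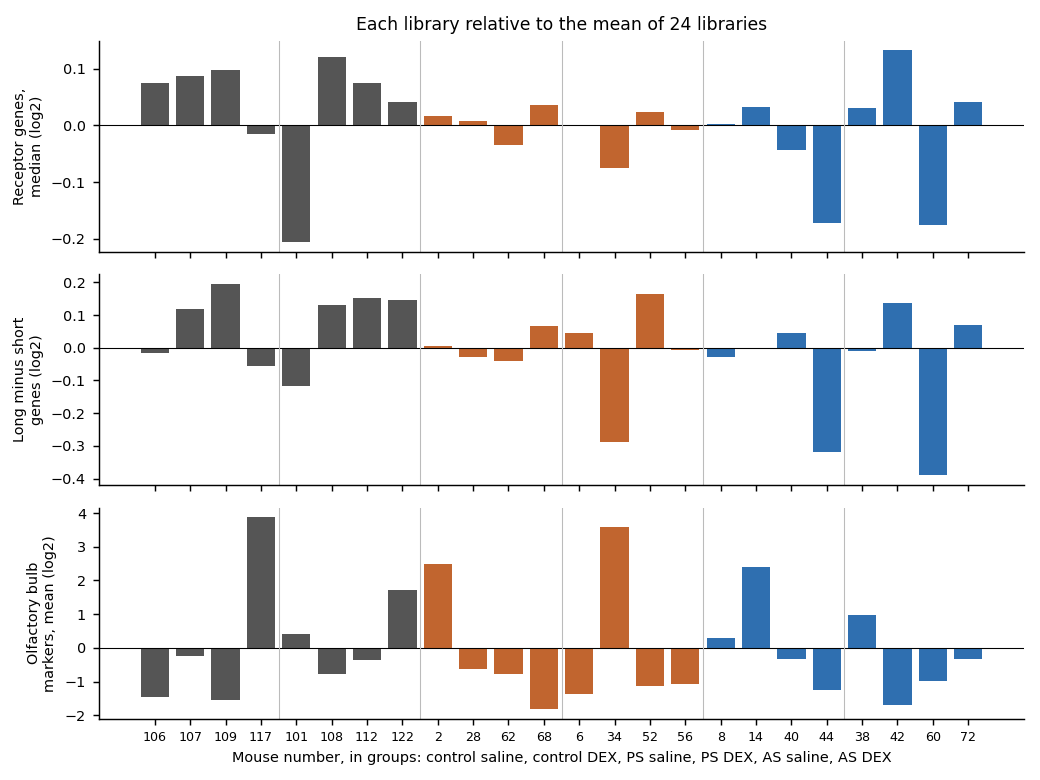
Values per library, on a log2 scale centred over the 24 libraries, of the median receptor gene, of long minus short genes, and of the olfactory bulb markers. The receptor median is lowest in control DEX mouse 101 (−0.21), AS DEX mouse 60 (−0.18) and AS saline mouse 44 (−0.17), of which the last 2 also have low long genes.

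None of the 33 receptor genes was called between the 2 coping classes. AS against PS with saline gave 0 calls among the 33 receptor genes in limma, edgeR and DESeq2 (0.0% of all genes in limma), 1 gene at an unadjusted p under 0.05 (beside 4.77%), and 2 whose groups did not overlap (beside 5.22%). The gene with the smallest p was Gria2, with 22108, 21214, 20612 and 22876 normalized counts in PS and 16267, 19389, 19197 and 20269.9 in AS mice, a difference of −0.21 ± 0.09 (adjusted p = 0.934 in limma). None of the 33 passed the threshold in the tests of differences between DEX responses in limma, edgeR or DESeq2. The share of all genes called in limma was 0.0% for PS against control, 0.348% for AS against control and 0.0% for AS against PS. In the same order it was 0.0%, 0.547% and 0.0% in edgeR, and 0.163%, 3.12% and 0.0% in DESeq2. At an unadjusted p under 0.05 in limma there were 4 receptor genes (beside 9.98%), 5 (beside 13.5%) and 0 (beside 2.44%). Of the 33 genes, the smallest p for AS against control was that of Grm8 (difference of the responses 0.53 ± 0.18, adjusted p = 0.183 in limma). Its normalized counts were 594, 632, 612 and 722 in control mice with saline and 362, 617, 617 and 504 with DEX, where mouse 101 stood lowest. In AS mice they were 509, 552, 436 and 571 with saline and 626, 669, 576 and 534 with DEX, and the groups overlapped in both kinds of mouse. Without control DEX mouse 112 or without the libraries with low long genes, the adjusted p was 0.0756 and 0.0908 in limma.

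Several abundant receptor genes were not called in any comparison by limma with all libraries. Gabbr1 averaged 22637 to 23397 normalized counts in the 6 groups, and its differences in the 6 pairwise comparisons lay within 0.03 log2 units with an SE of 0.06. Gabra3 averaged 4902 to 5167 and Gabrb1, a GABA-A beta subunit, 4941 to 5893. Neither were Grik5, Grm5, Gabbr2, Grid1, Gria2 and Grin1. Without the libraries with low long genes, Gabrb1 (adjusted p = 0.0469) and Grid1 (0.0872) were called with DEX over all mice. With the long-minus-short covariate, Gabrb1 was called higher with DEX in control (adjusted p = 0.0761) and AS mice (0.0692 in limma). For DEX over all mice, the differences of the abundant genes named here ran from −0.04 ± 0.06 for Grik5 to 0.14 ± 0.07 for Gabrb1 (adjusted p = 0.214 in limma).

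The partners of the receptors were counted from lists of auxiliary subunits, scaffolds and transmitter enzymes and transporters. With saline, stress gave 0 calls in any of the 5 lists in PS and in AS mice, beside 1.51% and 0.156% of all genes. In lists this short, the lack of a call says little. Over all mice, DEX lowered 4 of 18 AMPA and kainate auxiliary subunits (median −0.004), beside 8.01% of all genes called lower and 15.5% in either direction. These were Cacng3 (−0.20 ± 0.05, adjusted p = 0.00628) and Cacng4 (−0.17 ± 0.06, adjusted p = 0.098), which are TARPs that traffic AMPA receptors, Shisa9 (−0.19 ± 0.05, adjusted p = 0.0168) and the kainate partner Neto2 (−0.23 ± 0.07, adjusted p = 0.0183 in limma). Within single kinds of mouse, Cacng3 was called in PS and AS mice, Cacng4 only in AS mice (−0.33 ± 0.11, adjusted p = 0.0918 in limma), and Shisa9 and Neto2 in none. Of 21 excitatory scaffold genes (median −0.033), 3 were called over all mice, beside the same 15.5% of all genes. Nptx2, a secreted pentraxin that clusters AMPA receptors on interneurons, fell by 0.41 ± 0.07 (adjusted p = 7.36e-05). Grip1 fell by 0.18 ± 0.05 (adjusted p = 0.0165) and Nptx1 rose by 0.15 ± 0.05 (adjusted p = 0.0482 in limma). Nptx2 was called in control, PS and AS mice, where it fell by 0.35, 0.35 and 0.52. Grip1 was called only in control mice (−0.29 ± 0.09, adjusted p = 0.067 in limma), and Nptx1 in no single kind of mouse.

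Among 13 GABA receptor partners (median 0.025), 3 were called over all mice, beside 15.5% of all genes. Kctd8, an auxiliary subunit of the GABA-B receptor, rose most. Its rise was 0.93 ± 0.17 for control, 1.25 ± 0.17 for PS and 1.77 ± 0.17 for AS mice (adjusted p = 0.00105, 4.61e-05 and 3.35e-07 in limma), while Gabbr1 and Gabbr2 themselves were not called. Kctd12, another such subunit, fell by 0.26 ± 0.08 over all mice (adjusted p = 0.0406), and Shisa7, a partner of GABA-A receptors, rose by 0.24 ± 0.05 (adjusted p = 0.000704 in limma). By kind of mouse, Kctd12 was called only in AS mice (−0.44, adjusted p = 0.0792) and Shisa7 only in control mice (0.33 ± 0.08, adjusted p = 0.0162 in limma). Of 7 genes of GABA synthesis, transport and breakdown (median 0.006), none was called over all mice in limma, and the transporter gene Slc6a13 rose by 0.88 ± 0.29 in control mice (adjusted p = 0.0937 in limma). That gene also stands in the list of leptomeningeal markers. Of 11 genes of glutamate synthesis and transport (median 0.035), 2 were called over all mice, beside 15.5% of all genes. Glul, the glutamine synthetase of astrocytes, rose by 0.16 ± 0.05 (adjusted p = 0.036) and the neuronal transporter gene Slc1a1 by 0.10 ± 0.04 (adjusted p = 0.0963 in limma). By kind of mouse, Glul was called only in control mice (0.35 ± 0.09, adjusted p = 0.0167 in limma) and Slc1a1 in none.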

How the data were processed

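Poly(A) RNA of 24 PFC samples was sequenced as strand-specific, paired-end libraries. Per the submitters' notes, the authors used fastp 0.20.1, HISAT2 2.2.1 (GRCm38/mm10), featureCounts of Subread 2.0 and DESeq2 1.36.0. The signal values that the authors deposited are gene counts divided by a size factor per library, so alignment, counting and scaling are part of each value. Their tables of fold changes and p-values were not used. In every library 100.0% of values were whole multiples of 1 read (tolerance 0.01), and reads were recovered.

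Groups came from the library names in the sample labels, in which the defeated classes carry the codes dep1 and dep2, read as PS and AS. All genes were fitted in R 4.3.3 with limma 3.58.1 (trend) on log2(normalized count + 1), with 1 mean per group and all 24 libraries, in 12 comparisons. Subunit ratios were tested by exact permutation, two-sided, with Benjamini-Hochberg adjustment over 14 tests, of which 6 are given. p-values measure the spread between mice. Exon lengths and gene coordinates came from GENCODE vM21 (GRCm38). The scripts were tested on simulated data. There, limma called 32.3% of the genes changed by 0.3 log2 units in a comparison of 4 with 4 libraries (DEX in control mice). Over all mice it called 77.4% of them. In the simulation few genes were changed, by the same amount in every kind of mouse, and genes varied independently of each other. The shares may therefore differ in the real data. Alternatives were a pseudocount of 8, a minimum of 10 reads in every library, quantile normalization, a library size covariate, edgeR 4.0.16 and DESeq2 1.42.0 on recovered reads, each library left out in turn, and, after seeing the data, the settings on olfactory bulb markers and long genes. The genes named were those called in any comparison, the most abundant of each class, the smallest p of each comparison with no call and the genes of the ratios. The receptor genes not reported here number 5, with 4 ratios that use them and 1 partner gene, and all stayed in the fits and adjustments. The members and lists were chosen with earlier results of these data known.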

Additional observations from a re-analysis of the deposited data

Results flagged for a closer look

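Within groups of 4 libraries, 7 of 126 sets of values of the 21 named genes held a library whose gap to its nearest neighbour was above Dixon's critical value for 4 values, as a share of their range. Chance gives about 1 in 20, or 6.3 such sets. The values are normalized counts. Low libraries were control DEX mouse 101 for Gria1 (10143) and AS DEX mouse 60 for Grid1 (1635). High libraries were PS saline mouse 68 (1150.0) and PS DEX mouse 56 (1332) for Grik4, and control saline mouse 117 for Grin2c (2042). AS DEX mouse 42 was high for Gria2 (23007), and AS DEX mouse 38 was high for Grik5 (7305). The 33 receptor genes had their lowest medians in control DEX mouse 101 and AS DEX mouse 60.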

How the results depend on the processing

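No paired analysis was possible because mouse numbers do not recur between groups. Counts of called receptor genes, of 33, moved as follows, and the cause was not tested. The share of all genes called in the same setting is given as a percentage in brackets, and it moved as well. For stress in PS mice (0, 1.51%), DESeq2 gave 3 (3.06%). Leaving out the libraries with low long genes gave 3 (5.81%) and the long-minus-short covariate 4 (7.94%). For both stressed groups (1, 1.49%), the library size covariate gave 0 (0.739%) and DESeq2 4 (3.46%). Leaving out the olfactory-bulb-high libraries gave 0 (0.298%), leaving out those with low long genes 2 (3.23%) and the long-minus-short covariate 4 (6.38%). For DEX in control mice (3, 6.49%), leaving out the olfactory-bulb-high libraries gave 1 (5.5%) and the long-minus-short covariate 7 (12.4%). For DEX in PS mice (5, 5.36%), the library size covariate gave 2 (5.05%). Leaving out the olfactory-bulb-high libraries gave 1 (2.95%) and those with low long genes 3 (5.97%). For DEX in AS mice (2, 8.77%), quantile normalization gave 1 (8.4%) and the library size covariate 1 (7.38%). Leaving out libraries with low long genes gave 8 (15.4%) and the long-minus-short covariate 8 (15.2%). For DEX over all mice (7, 15.5%), leaving out libraries with low long genes gave 13 (19.6%) and the long-minus-short covariate 12 (22.2%). For the difference between AS and control responses (0, 0.348%), leaving out libraries with low long genes gave 2 (7.28%). For any difference among groups (7, 14.8%), the library size covariate gave 4 (11.6%) and DESeq2 12 (20.4%). Leaving out the olfactory-bulb-high libraries gave 3 (11.0%), those with low long genes 13 (23.6%) and the long-minus-short covariate 12 (27.2%).

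Leaving out 1 library at a time gave 0 to 1 calls for stress in PS mice, 0 to 3 for both stressed groups, 2 to 4, 0 to 6 and 0 to 5 for DEX in control, PS and AS mice, 7 to 10 for DEX over all mice, 0 to 2 for AS against control responses and 4 to 11 for any difference, and 0 for stress in AS mice, AS against PS, and the other interactions. For stress in PS mice the count rose without control DEX mouse 112, PS saline mouse 62 or AS saline mouse 44. For both stressed groups it rose without control DEX mouse 101, PS saline mouse 62 or AS saline mouse 8. For DEX in PS mice it fell without any 1 of the 8 PS libraries. For DEX in AS mice it was 4 without AS saline mouse 44, 5 without AS DEX mouse 60, 0 without AS saline mouse 8 or 40 or AS DEX mouse 38 or 42, and 1 without AS DEX mouse 72, control DEX mouse 108 or 122 or PS DEX mouse 6. For AS against control responses it was 2 without control DEX mouse 112. For any difference it was 4 without control DEX mouse 122 and 11 without AS saline mouse 44. The log2 differences with DEX ran from 0.237 to 0.262 (Grin2a/Grin2b), 0.094 to 0.146 (Gria1/Gria2, past the threshold without control saline mouse 117, AS saline mouse 8 or AS DEX mouse 60) and −0.065 to −0.019 (Gabbr2/Gabbr1). With stress they ran from −0.059 to −0.039, −0.072 to −0.028 and −0.110 to −0.050 in the same order, and Gabbr2/Gabbr1 passed without control saline mouse 117. No named gene changed direction in the comparison it was called in. Gria4, Gabrd, Gria1, Grik4 and Grm3 kept their calls with DEX over all mice in all 33 settings.

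The lowest receptor gene averaged 265 and the highest 23042 normalized counts, so counting error weighs most on low genes such as Grik1.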
